A study of Mus musculus with 4 samples.

Results

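Genes that mark the olfactory bulb and the Dlx and Zic lineages of forebrain neurons were read on arrays of brain cortex from SAMP8 mice that had received either TCQA or water. The set has 33 genes, named from their known expression, and 31 of them had a probe set with a symbol on the array, out of 19505 symbols. Doc2g and Kctd12 were not analysed here. The set was selected on the higher means of Calb2, Zic1 and Dlx6 with TCQA in these same arrays, to see whether other bulb markers had the same pattern. The differences between TCQA and control are therefore given as a description and support nothing by themselves.

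The TCQA group received 5 mg/kg of the compound by mouth each day for 1 month, starting at 11 months of age, and the control group received MilliQ water. All mice were male, of the inbred SAMP8 strain, which ages early and is used as a model of memory loss in old age, and had been housed individually for 4 months from 7 months of age. The labels do not say whether a sample was 1 mouse or a pool. TCQA is given by its abbreviation only. Each group had 2 Clariom S arrays, and a value is the log2 signal of a probe set, so that a step of 1 is a 2-fold step in signal.

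The olfactory bulb lies in front of the cortex and receives the axons of the olfactory sensory neurons. Mitral and tufted cells, its glutamatergic output neurons, carry the signal on to the olfactory cortex. Granule and periglomerular cells, its inhibitory interneurons, are renewed through life from neuroblasts of the subventricular zone, and Dlx, Sp8, Sp9 and Pax6 are among the transcription factors that specify them. Many of these genes are not restricted to the bulb. Dlx genes and calretinin also mark cortical interneurons, Etv1 marks deep cortical layers, and Zic1 is expressed in the thalamus, septum, cerebellum and meninges.

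Arrays correlated across the 22206 gene probe sets at 0.991 to 0.993, and their medians lay between 7.12 and 7.17. Negative controls had array medians of 7.17 to 7.32, and 14 of the 31 genes lay under that level in both groups, so their values are less certain. Excitatory neuron markers of the cortex were bright, with 12 of 13 at or above the median gene signal. Among them Slc17a7, the vesicular glutamate transporter of cortical neurons, had 16.39 and 16.03 with TCQA and 16.68 and 16.38 in control. Throughout, values come in the order of replicate 1 and replicate 2.

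The promoters of 4 of the genes are shown because the results turn on how mitral cell markers and a Dlx factor differed between arrays. Eomes and Cdhr1 stood far out on 1 array, Tbx21 is a mitral cell factor that did not, and Dlx2 is the Dlx gene with the widest gap between the TCQA arrays. The bases come from RefSeq on the GRCm38.p6 build, read 5′ to 3′ on the strand of the gene, and end at the start site or, for Eomes, 3 bases before it. They lie at chr9:118477939-118478185 on the plus strand (Eomes), and on the minus strand at chr14:37098348-37098597 (Cdhr1), chr11:97115332-97115581 (Tbx21) and chr2:71546755-71547004 (Dlx2). Capitals mark TATAA, the core of a TATA box, and GGGCGG, the box bound by Sp factors, on either strand.
Eomes: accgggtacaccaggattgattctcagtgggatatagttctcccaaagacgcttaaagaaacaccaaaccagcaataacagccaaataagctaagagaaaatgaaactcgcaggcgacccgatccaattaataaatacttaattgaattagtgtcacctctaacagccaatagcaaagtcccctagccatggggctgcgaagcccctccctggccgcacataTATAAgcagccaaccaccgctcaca
Cdhr1: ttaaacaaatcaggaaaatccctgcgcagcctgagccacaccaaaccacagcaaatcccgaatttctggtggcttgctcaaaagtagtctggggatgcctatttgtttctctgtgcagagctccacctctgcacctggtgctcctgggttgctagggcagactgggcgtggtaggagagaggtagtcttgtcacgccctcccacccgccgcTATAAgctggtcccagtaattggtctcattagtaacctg
Tbx21: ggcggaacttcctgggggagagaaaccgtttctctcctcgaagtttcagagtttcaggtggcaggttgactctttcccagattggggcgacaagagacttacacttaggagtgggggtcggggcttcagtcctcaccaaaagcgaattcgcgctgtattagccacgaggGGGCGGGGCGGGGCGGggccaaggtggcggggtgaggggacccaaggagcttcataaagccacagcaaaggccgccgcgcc
Dlx2: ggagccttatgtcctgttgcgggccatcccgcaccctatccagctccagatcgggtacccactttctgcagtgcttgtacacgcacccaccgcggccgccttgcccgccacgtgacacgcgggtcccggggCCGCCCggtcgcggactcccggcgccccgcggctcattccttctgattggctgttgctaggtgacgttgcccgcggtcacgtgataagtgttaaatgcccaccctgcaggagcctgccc
The stretches of Eomes and Cdhr1 held 1 TATAA each and no Sp box, and those of Tbx21 and Dlx2 held Sp boxes and no TATAA. The 3 Sp boxes of Tbx21 overlap end to end, and Dlx2 has 1. The share of G and C was 46.6% for Eomes, 53.2% for Cdhr1, 60.8% for Tbx21 and 66.4% for Dlx2.

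RefSeq windows of 300 bases around the start site, 250 before it and 50 after, were matched for 25 of the 33 genes, with 31 windows. GGGCGG was in 16 of these 31 windows and in 35.7% of all 32851 windows in the table, and TATAA in 5 of 31 and in 24.9%. TAATTA, the core that homeodomain factors such as Dlx bind, was in 2 of 31, those of Sp8 and Uncx, and in 5.29% of all. GGTGTGA, a core bound by T-box factors such as Eomes and Tbx21, was in 0 of 31 and in 3.98% of all. Both strands were searched, and a TATAA and a TAATTA can share bases. The matches describe letters in these windows.

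Across the 31 genes the median difference of TCQA minus control was 0.19, against 0.01 over all gene probe sets, and 26 had a higher mean with TCQA (51.1% of all probe sets had one). Both TCQA arrays lay above both control arrays for 7 of them, with a background of 18.9%, and below for 3, with a background of 17.8%. Without Calb2, Zic1 and Dlx6, which chose the set, the first count was 4 of 28, the median difference was 0.18 and 23 had a higher mean. The arrays of the groups overlapped for all others of the set, while 36.6% of all probe sets had no overlap in one direction or the other. No gene of the table passed limma with Benjamini-Hochberg adjustment (0 of 22206), where the smallest adjusted p was 0.698, and 1386 probe sets reached 0.05 before adjustment. With 2 arrays a group an exact permutation test of a single gene cannot go under 0.333. The depositors' criterion asks for more than a 2-fold change and, before adjustment, a p under 0.05. In the higher direction 2 of the 31 met it, Calb2 and Zic1, with 0.203% of all probe sets, and 0.374% met it in either direction. Both genes were chosen for this difference, and nothing is read from that count.

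The pattern that most of the genes shared was a high value on TCQA replicate 1. Of the 31 genes 22 had their highest value there, against 26.4% of all probe sets. The highest value was on TCQA replicate 2 for 4 (25.6% of all), on control replicate 1 for 5 (23.8%) and on control replicate 2 for 0 (24.2%). The 4 arrays spanned over 1 log2 unit for 14 of the 31, against 7.31% of all. For 10 genes the highest array was TCQA replicate 1 and the lowest was the other TCQA array, which held for 8.24% of all probe sets. TCQA replicate 1 exceeded TCQA replicate 2 for 26 of the 31 (50.3% of all probe sets), by over 1 log2 unit for 10 (1.13%), and the reverse gap was found for 0 (1.09%). The control arrays differed by over 1 log2 unit for 2 of the 31, Zic1 and Scgn, against 1.7% of all. Without Calb2, Zic1 and Dlx6, 20 of 28 were highest on TCQA replicate 1. Each of these gaps is between 1 array and 1 array, and has no test.

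**Figure D1:**
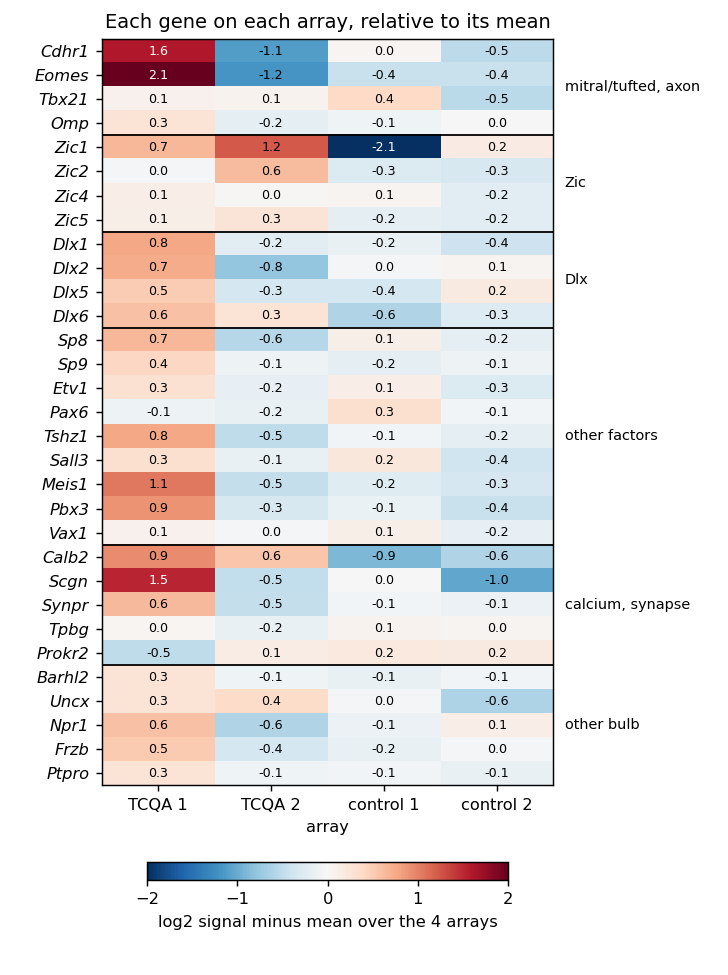
Heat map of the log2 signal of each of the 31 genes on each array minus its mean over the 4 arrays, with genes in the order of their roles and the difference printed in each cell. The column of TCQA replicate 1 is above the mean for most genes, with Eomes, Cdhr1 and Scgn highest, while Zic1 is lowest on control replicate 1.

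Among the markers of bulb output neurons, Eomes had the widest gap. Eomes, also called Tbr2, is a T-box factor of mitral and tufted cells and of cortical intermediate progenitors. Its log2 signals were 7.87 and 4.62 with TCQA and 5.36 and 5.36 in control. TCQA replicate 1 was 2.51 above the next array, the first rank for this gap among 22206 probe sets, and TCQA replicate 2 was the lowest array. Cdhr1, a photoreceptor and mitral cell cadherin, had 8.37 and 5.66 with TCQA and 6.82 and 6.25 in control, with the same 2 arrays at the ends. The group means differed by 0.88 for Eomes (SE 0.94) and by 0.48 for Cdhr1 (SE 0.80), in each case less than the standard error. Without TCQA replicate 1 the differences were -0.74 and -0.87. Both genes were under the median of the negative controls in both group means.

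The other markers of the bulb's output and input spanned less than 1 log2 unit. Tbx21, or T-bet, the T-box factor of mitral and tufted cells, had 5.94 and 5.93 with TCQA and 6.26 and 5.32 in control. Its TCQA arrays lay between the control arrays. Omp, the olfactory marker protein of mature sensory neurons, had 4.66 and 4.18 with TCQA and 4.29 and 4.38 in control, all dim. The ends of the range of Omp were the same arrays as for Eomes, but only 0.48 apart.

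Calcium-binding and synaptic proteins of bulb interneurons were next. Calb2, which encodes calretinin, a calcium buffer of granule and periglomerular cells and of some cortical interneurons, had 11.26 and 10.87 with TCQA and 9.42 and 9.71 in control. Both TCQA arrays were high and the groups did not overlap. The means were 11.07 ± 0.27 and 9.56 ± 0.20 (SD, n = 2 each), a 2.83-fold level. The difference was 1.50 (SE 0.22), and 1.31 without TCQA replicate 1. Calb2 was one of the genes that chose the set, so these values are a description only. Changes in cell number and in RNA per cell cannot be told apart in these bulk samples, here or in any value below.

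Scgn, which encodes secretagogin, a calcium sensor of bulb interneurons, had 8.70 and 6.70 with TCQA and 7.18 and 6.14 in control. TCQA replicate 1 was 1.51 above the next array and the groups overlapped. The means differed by 1.03 (SE 0.66), and by 0.03 without TCQA replicate 1. The control mean lay under the median of the negative controls, so no fold is given. Without control replicate 1 it was 1.55 and without control replicate 2 it was 0.51. Synpr, the synaptic vesicle protein synaptoporin of granule cells, had 14.91 and 13.78 with TCQA and 14.21 and 14.15 in control, so that the TCQA arrays lay on either side of the controls.

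The other membrane proteins of this group had lower means with TCQA. Tpbg, the 5T4 glycoprotein of granule cells, had 9.31 and 9.12 with TCQA and 9.34 and 9.32 in control, a difference of -0.12 (SE 0.18). Prokr2, the receptor through which prokineticin guides neuroblasts to the bulb, had 4.81 and 5.47 with TCQA and 5.52 and 5.51 in control. It was the 1 gene of the 31 for which TCQA replicate 1 was the lowest array.

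**Figure D2:**
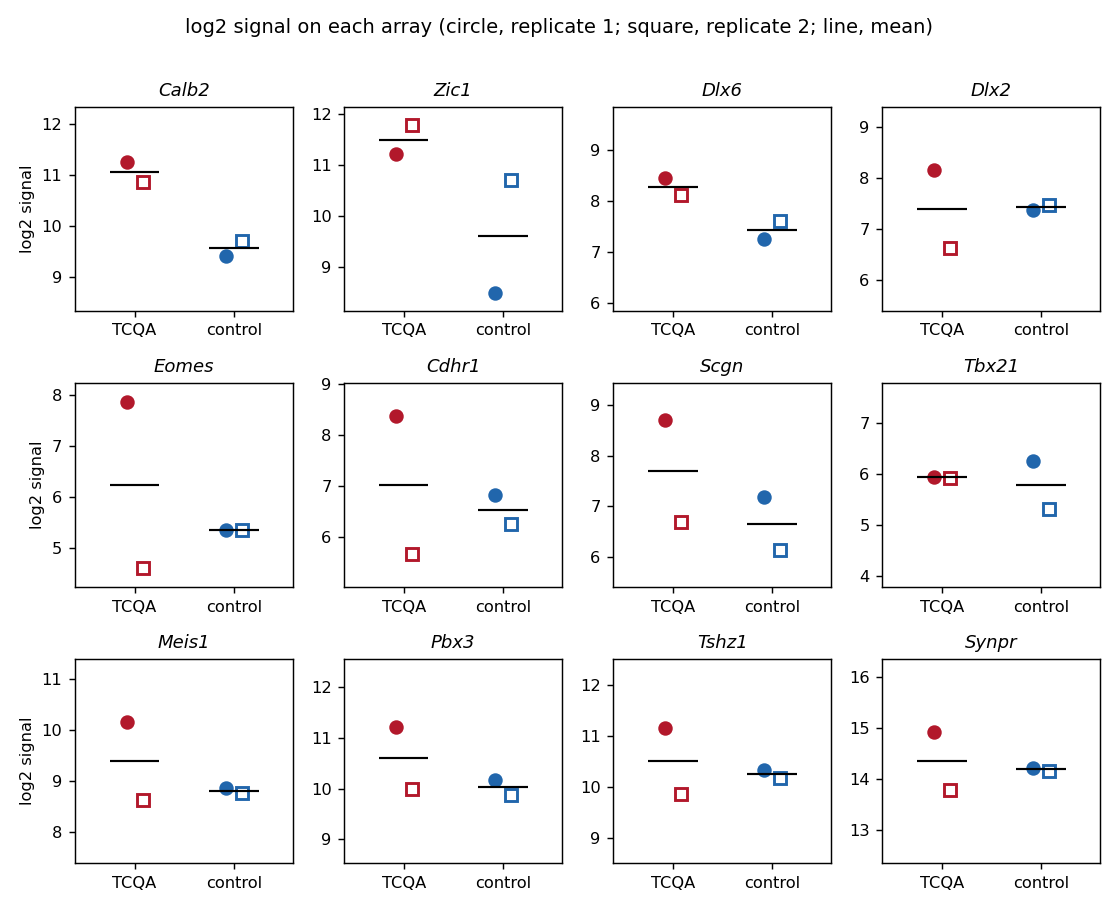
log2 signal of 12 of the genes on each array, with TCQA in red and control in blue, circles for replicate 1, squares for replicate 2 and a line at each group mean; every panel spans 4 log2 units. Calb2 and Dlx6 have both TCQA points above both control points, Zic1 has 1 low control point, and Eomes, Cdhr1, Scgn, Meis1, Pbx3, Tshz1, Synpr and Dlx2 have 1 high TCQA point.

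Dlx genes encode homeodomain factors that drive the development of forebrain GABAergic neurons, and lie in pairs. Dlx1 and Dlx2 are neighbours in the GRCm38.p6 gene table, as are Dlx5 and Dlx6. All 4 of the 4 Dlx genes were highest on TCQA replicate 1. Dlx6 had 8.44 and 8.12 with TCQA and 7.24 and 7.60 in control, without overlap, and a difference of 0.86 (SE 0.22), under 2-fold. Without TCQA replicate 1 it was 0.70. Its neighbour Dlx5 had 8.55 and 7.70 with TCQA and 7.69 and 8.22 in control, so the groups overlapped and the difference was 0.17 (SE 0.33). Without TCQA replicate 1 the difference of Dlx5 was -0.26.

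The other Dlx pair was also uneven. Dlx1 had 9.71 and 8.71 with TCQA and 8.77 and 8.52 in control, a difference of 0.56 (SE 0.34) that was 0.06 without TCQA replicate 1. Dlx2 had 8.15 and 6.64 with TCQA and 7.38 and 7.47 in control. The TCQA arrays of Dlx2 lay on either side of the controls, 1.52 apart, and the group means differed by -0.03 (SE 0.46). Of the 4 Dlx genes, Dlx6 alone had groups that did not overlap.

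Zic genes encode zinc finger factors of the dorsal midline, cerebellum, septum, thalamus, meninges and bulb. Of the 4 Zic genes 3 were highest on TCQA replicate 2 instead. Zic1 had 11.22 and 11.79 with TCQA and 8.50 and 10.72 in control, a difference of 1.89 (SE 0.67). The groups did not overlap, but the control arrays were 2.22 apart, and leaving out control replicate 1 gave 0.78 where leaving out control replicate 2 gave 3.0. Zic2 had 6.65 and 7.33 with TCQA and 6.42 and 6.36 in control, a difference of 0.60 (SE 0.26). Its arrays did not overlap either, and its control arrays were within 0.06 of each other.

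Their neighbours in the genome are the other Zic genes of the set. Zic5, next to Zic2 in the gene table, had 5.37 and 5.52 with TCQA and 5.08 and 5.05 in control, a difference of 0.38 (SE 0.17) with no overlap. Zic4, whose span in the table overlaps that of Zic1, had 4.86 and 4.75 with TCQA and 4.78 and 4.50 in control. Zic4 thus overlapped between groups, with a difference of 0.16 (SE 0.19), and its lowest array was control replicate 2, not the array that was low for Zic1. Zic2, Zic4 and Zic5 lay under the median of the negative controls in both group means, though Zic2 was above it on TCQA replicate 2.

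**Figure D3:**
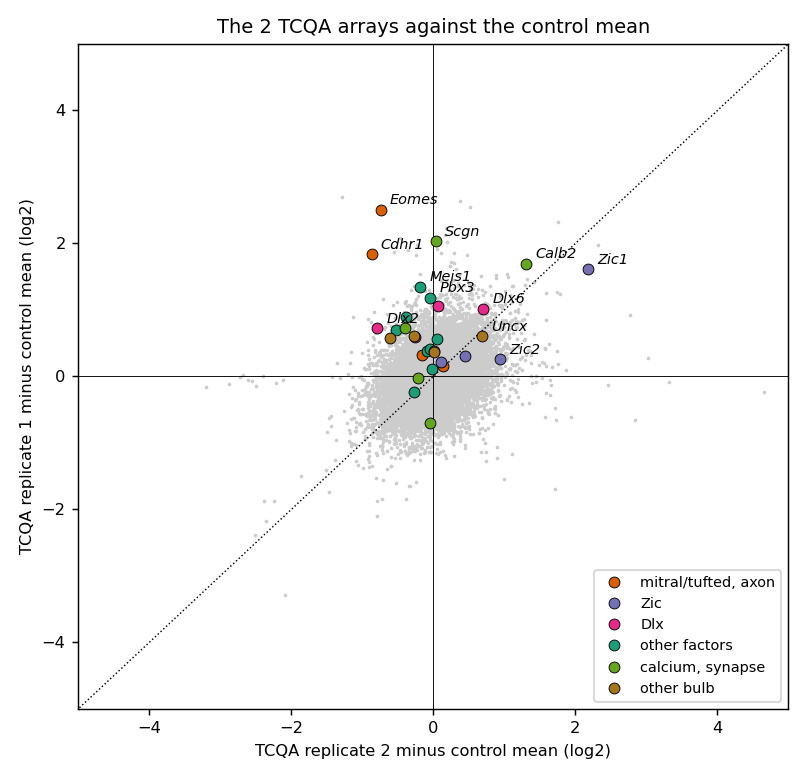
Each TCQA array minus the mean of the control arrays, in log2 units, for all 22206 gene probe sets in grey and the 31 genes in colour by role; the dotted line marks equal values, and both axes subtract the same control mean. Zic1, Zic2, Uncx, Dlx6 and Calb2 lie above 0 on both axes, while Eomes, Cdhr1, Scgn, Meis1 and Pbx3 lie high and near or left of 0.

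Of the other transcription factors of the interneuron lineage, 7 of 9 were highest on TCQA replicate 1. Meis1, a homeodomain cofactor, had 10.17 and 8.63 with TCQA and 8.86 and 8.77 in control, with TCQA replicate 1 standing 1.31 above the next array. Pbx3, a partner of Meis and Hox proteins, had 11.21 and 9.98 with TCQA and 10.18 and 9.87 in control. Tshz1, a zinc finger factor needed for the maturation of bulb interneurons, had 11.15 and 9.88 with TCQA and 10.33 and 10.19 in control. For each of the 3 genes TCQA replicate 2 was within 0.39 of the control mean, and the differences without TCQA replicate 1 were -0.19, -0.04 and -0.38.

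Sp8, a zinc finger factor of neuroblasts bound for the bulb, had 6.93 and 5.70 with TCQA and 6.39 and 6.07 in control, again with the TCQA arrays at both ends. Its relative Sp9 had 6.93 and 6.42 with TCQA and 6.31 and 6.41 in control. The arrays of Sp9 did not overlap, but TCQA replicate 2 and control replicate 2 differed by under 0.01. Etv1, an ETS factor of bulb interneurons and of layer 5 neurons, had 11.02 and 10.55 with TCQA and 10.84 and 10.44 in control. Sall3, a zinc finger factor of dopaminergic periglomerular cells, had 6.35 and 5.89 with TCQA and 6.26 and 5.63 in control, also with overlap. Sp8, Sp9 and Sall3 lay under the median of the negative controls in both group means.

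Pax6, a paired-box factor of bulb dopaminergic interneurons, astrocytes and progenitors, had 8.48 and 8.43 with TCQA and 8.91 and 8.52 in control. It was the 1 factor of this group whose TCQA arrays were both lower, with a difference of -0.26 (SE 0.20). Vax1, a ventral forebrain homeobox factor, had 7.96 and 7.82 with TCQA and 7.99 and 7.70 in control, a range of 0.28.

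The last 5 genes are enriched in the bulb but less specific in role. Uncx, a paired-type homeobox factor, had 6.24 and 6.32 with TCQA and 5.94 and 5.33 in control, without overlap, and a difference of 0.64 (SE 0.24). Npr1, the receptor of atrial natriuretic peptide, had 5.37 and 4.19 with TCQA and 4.67 and 4.93 in control. Frzb, a secreted Wnt antagonist of olfactory ensheathing cells, had 9.50 and 8.62 with TCQA and 8.82 and 8.95 in control. The TCQA arrays of Npr1 and Frzb lay on either side of their controls. Ptpro, a receptor tyrosine phosphatase, and Barhl2, a homeobox factor, ranged over 0.42 each, with TCQA replicate 1 highest. Uncx, Npr1 and Barhl2 lay under the median of the negative controls in both group means, so the difference of Uncx is less certain.

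The gap between the TCQA arrays was not limited to dim probe sets. Among the 17 brighter genes, those not under the median gene signal, 13 were highest on TCQA replicate 1 (28.7% of such probe sets in the table) and 6 exceeded TCQA replicate 2 by over 1 log2 unit (0.694%). Their median gap was 0.86, against 0.03 for all probe sets at that level. Scgn was among the brighter genes only through its value on TCQA replicate 1, and without it 12 of 16 were highest there, 5 had a gap over 1 and the median gap was 0.66. For the 14 dimmer genes the median gap was 0.41, and 4 were over 1. Without TCQA replicate 1 the count of genes with a higher mean was 13 of 31 and the median difference was -0.045. Without TCQA replicate 2 they were 28 of 31 and 0.60.

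Other bulb genes, not among the 33, were read from a list of 20. Of them 11 were highest on TCQA replicate 1 and 10 lowest on TCQA replicate 2, against 24.9% of all probe sets lowest there, and the median gap was 0.22. The gap was over 1 log2 unit for 4, of which Gng4, Nmb and Cd24a were named after their values were seen. Th, the rate-limiting enzyme of dopamine synthesis in periglomerular cells, had 9.42 and 7.36 with TCQA and 7.74 and 7.46 in control. Gng4, a G protein subunit of granule cells, had 12.68 and 10.99 with TCQA and 11.97 and 11.77 in control. Nmb, the neuropeptide neuromedin B, had 6.67 and 5.27 with TCQA and 5.95 and 6.28 in control, and Cd24a, a neuroblast surface protein, 7.76 and 6.58 with TCQA and 6.92 and 6.82 in control. The TCQA arrays of Gng4, Nmb, Cd24a and Th lay above and below both controls. Nmb and Cd24a lay under the median of the negative controls in both group means, so their gaps are less certain.

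Not all bulb genes of the list had this order, and TCQA replicate 1 was above TCQA replicate 2 for 15 of 20. Ddc, the enzyme after Th in dopamine synthesis, had 6.46 and 7.38 with TCQA and 6.39 and 6.17 in control, with TCQA replicate 2 high. Both group means of Ddc lay under the median of the negative controls. Nrp2, a semaphorin receptor, had 8.78 and 9.49 with TCQA and 9.18 and 9.39 in control, with TCQA replicate 1 lowest. Trh, the thyrotropin-releasing hormone precursor, had 7.54 and 7.89 with TCQA and 5.49 and 5.66 in control, with both TCQA arrays high as for Calb2. It was the 1 gene of the list past the depositors' criterion, against 0.203% of all probe sets in the higher direction. Unlike for Calb2, its control mean lay under the median of the negative controls, so its difference is less certain. Fabp7, a fatty acid binding protein of astrocytes and ensheathing cells, had 14.51 and 13.91 with TCQA and 13.78 and 13.13 in control, without overlap. Over the list 9 of 20 had a higher mean with TCQA and the median was -0.03. Family relatives of the 33 genes, such as Meis2, Tshz2, Dlx3 and Sall1, had a median gap between the TCQA arrays of 0.05, with TCQA replicate 1 highest for 5 of 22. Their median difference was 0.05, and 13 of 22 had a higher mean. Sall1 had 7.06 and 6.04 with TCQA and 6.41 and 6.58 in control. Meis2 had 15.06 and 14.46 with TCQA and 14.56 and 14.61 in control. For these 2 of the 22 (8.24% of all) TCQA replicate 1 was highest and TCQA replicate 2 lowest. The gap of Tshz2 was -0.95. Both TCQA arrays lay below both controls for 4 of 22 (17.8% of all), Npr2 most at -0.55 (SE 0.20), and above for 2 (18.9%).

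Markers of cells and regions that also express Calb2, Zic1 or Dlx genes are given beside them. Of the cortical interneuron markers 8 of 19 were highest on TCQA replicate 1, with a median gap between the TCQA arrays of 0.28 and a median difference of 0.18. Gad1, a GABA-synthesising enzyme, had 12.89 and 11.78 with TCQA and 12.06 and 11.85 in control, while Gad2, the other isoform, had 13.22 and 13.47 with TCQA and 12.52 and 13.09 in control. Adarb2, a marker of interneurons from the caudal ganglionic eminence, differed by 0.64 (SE 0.19) without overlap. Nr2f2, another marker of that origin, had 9.49 and 10.46 with TCQA and 9.18 and 9.44 in control. It differed by 0.66 (SE 0.33), also without overlap, with TCQA replicate 2 highest. Prox1, Htr3a and Npas1, of the same origin, differed less, by 0.04, 0.18 and 0.25, and the groups overlapped for Prox1 and Htr3a. Vip, which marks many calretinin interneurons of the cortex, had 10.14 and 9.66 with TCQA and 10.02 and 10.19 in control. Sox6 had 9.33 and 8.97 with TCQA and 9.52 and 9.82 in control, a difference of -0.52 (SE 0.22) without overlap. It was the 1 of 19 with both TCQA arrays lower (17.8% of all probe sets), while 6 had both higher (18.9%). The part of these markers in the Calb2 and Dlx6 values was not tested.

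Thalamic and habenular markers, read without Calb2 and Zic1, had TCQA replicate 2 highest for 5 of 12 and control replicate 2 highest for 5. Their median difference was 0.045, with 6 of 12 higher. Their mean log2 signal was 8.25 and 8.58 with TCQA and 8.15 and 8.35 in control. The median of TCQA replicate 2 minus the control mean was -0.046, with values from -0.23 for Plekhg1 to 1.58 for Tcf7l2. Tcf7l2, a factor of thalamic neurons, had 9.71 and 11.54 with TCQA and 9.74 and 10.18 in control. Slc17a6, the vesicular glutamate transporter of the thalamus, had 9.82 and 11.17 with TCQA and 9.54 and 9.68 in control. TCQA replicate 2, the highest array for Zic1 and Zic2, was also the highest for both of these, and their part in the Zic values was not tested.

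Meningeal markers, read without Zic1, were lowest on control replicate 1 for 15 of 19, as Zic1 was, with a median difference of 0.39. Their mean log2 signal was 7.35 and 7.41 with TCQA and 6.65 and 7.23 in control. Of the 19, 17 had a higher mean with TCQA (51.1% of all probe sets), and 8 had both TCQA arrays above both controls (18.9%). Ogn had 8.45 and 8.92 with TCQA and 6.90 and 7.46 in control. It alone of the 19 passed the depositors' criterion, against 0.203% of all probe sets in the higher direction. Its control mean lay under the median of the negative controls. Igf2, a growth factor of the meninges and choroid plexus, had 11.06 and 11.60 with TCQA and 9.57 and 11.56 in control, and Dcn, the fibroblast proteoglycan decorin, 10.06 and 10.01 with TCQA and 8.67 and 10.62 in control. Choroid plexus markers were lowest on control replicate 1 for 8 of 11 and highest on control replicate 2 for 8. Of these Ttr, the transthyretin gene, had 12.23 and 14.97 with TCQA and 7.49 and 16.42 in control. The mean log2 signal of the choroid plexus list was 6.94 and 7.48 with TCQA and 6.16 and 7.88 in control. The part of meningeal and choroid plexus RNA in the Zic1 difference was not tested.

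**Figure D4:**
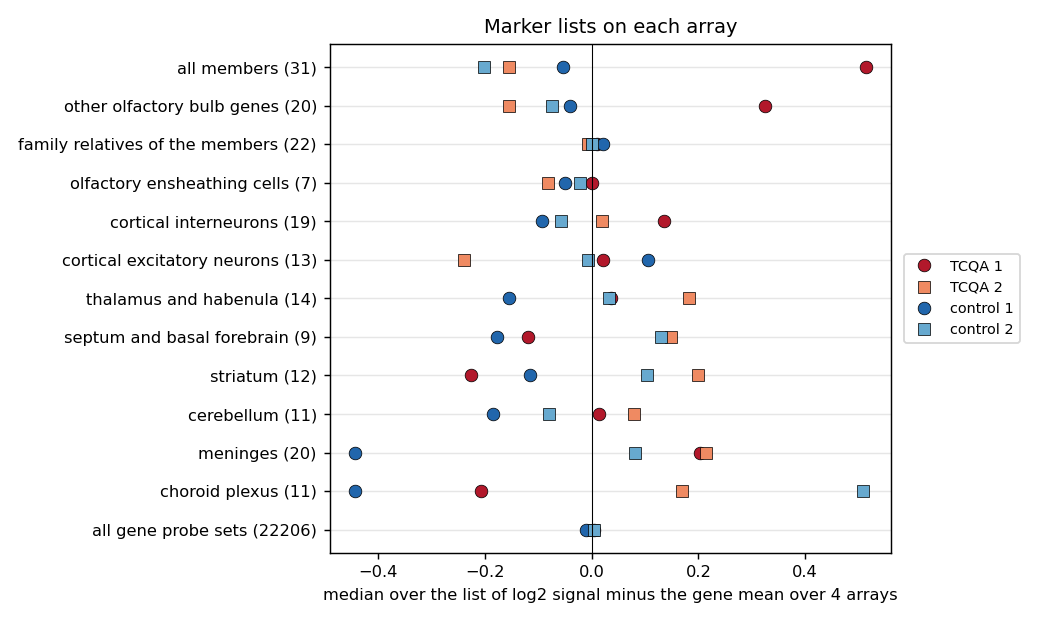
Median over each marker list of the log2 signal minus the gene's mean over the 4 arrays, 1 point per array, with the number of genes measured in brackets; the thalamic, cerebellar, meningeal and ensheathing lists are plotted with the genes they share with the 31. TCQA replicate 1 stands at 0.51 for the 31 genes and at 0.33 for the other bulb genes, and control replicate 1 stands at -0.44 for the meningeal and choroid plexus lists.

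The remaining lists varied in which array was highest. Striatal markers had TCQA replicate 2 highest for 8 of 12 and TCQA replicate 1 lowest for 8. Septal and basal forebrain markers had TCQA replicate 1 highest for 2 of 9, and, without genes of the set, cerebellar markers for 2 of 9 and markers of ensheathing cells for 2 of 6. Cortical excitatory neuron markers had TCQA replicate 1 highest for 5 of 13 and TCQA replicate 2 lowest for 8. TCQA replicate 1 was above TCQA replicate 2 for 11 of these 13. Their median gap was 0.28, against 0.22 for the other bulb genes and 0.465 for the 31 genes. The medians of TCQA minus control over these lists were -0.02 for the striatum, -0.09 for the septum, -0.08 for the cerebellum, -0.03 for ensheathing cells and -0.08 for excitatory neurons. Of the excitatory markers 3 of 13 had both TCQA arrays below both controls (17.8% of all), and 1 had both above (18.9%). The 3 were Neurod2 with -0.50 (SE 0.20), Cux2 with -0.48 (SE 0.19) and Foxp2 with -0.215 (SE 0.18). Lmo4 was the 1 above, with 0.20 (SE 0.17). Gabra6 and Barhl1, markers of cerebellar granule cells, were far under the negative control median on each array, at 2.80 to 3.63 and at 4.14 to 4.38. Cbln1, a synapse organiser of the cerebellum that is also expressed in the thalamus and cortex, had 9.02 and 8.74 with TCQA and 7.99 and 7.47 in control. Its difference was 1.15 (SE 0.24), without overlap. It was the 1 of 9 cerebellar markers past the depositors' criterion, against 0.203% of all probe sets in the higher direction.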

How the data were processed

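Brain cortex of 2 TCQA and 2 control samples was measured on Clariom S mouse arrays. With SST-RMA, in version 4.0.2 of the Transcriptome Analysis Console, the authors made the log2 signal of each probe set that they deposited, per the labels' design text. No genome build is given in the sources. This normalization sets arrays on a common distribution, so a value can be compared between arrays and not between genes. Of 28846 probe sets, 6640 controls were left out and 22206 were tested, 19572 of them with a symbol from the platform annotation. Each of the 31 genes had 1 probe set.

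The groups, from the sample titles, entered a fit with lmFit and eBayes of limma 3.58.1, run in R 4.3.3 (two-sided, TCQA minus control, Benjamini-Hochberg adjustment over 22206). Separate mice are not stated by the labels, and the p-values rest on a spread between these arrays that may be technical only. The number of arrays limits the precision; the median standard error was 0.20. The fit was tested on simulated data.

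The genes and the 11 other marker lists were chosen with earlier results of these data known. All 31 genes are reported. From other lists the rule allowed up to 4 genes with the largest absolute difference among those without overlap and at or above the median signal. Not all that qualified are named. The rule always took Ttr, Tcf7l2, Slc17a7, Gad1, Gad2, Th and Trh. Igf2, Dcn, Vip, Prox1, Htr3a, Npas1, Ddc, Nrp2, Gabra6, Barhl1, Gng4, Nmb and Cd24a were named after their values were seen. The values of Sall1, Meis2 and Tshz2 were also added after they were seen. Detection calls were not used here. Alternatives were other scalings, a filter on dim probe sets, other moderation, a replicate block and leaving out each array; counts without Calb2, Zic1 and Dlx6, without Scgn, and over lists without genes of the set were added after seeing the data.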

Additional observations from a re-analysis of the deposited data

How the results depend on the processing

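The direction of all 31 differences was kept under array centring, quantile normalization, no moderation, a moderation trend and the replicate block, and of the 17 left by the filter on dim probe sets. That filter left 14 of 17 genes with a higher mean and 36 probe sets past the depositors' criterion, against 83 in all; without moderation 25 passed. Without 1 array the criterion was met by 160 to 291 probe sets, the adjusted threshold by 0 to 4, 13 to 28 of the 31 genes had a higher mean, and their median difference ran from -0.045 (without TCQA replicate 1) to 0.60 (without TCQA replicate 2). Leaving out TCQA replicate 1 turned the sign for 13 of the 31 genes, TCQA replicate 2 for 2, control replicate 1 for 1 and control replicate 2 for 7; fewer samples enter these fits. Same-numbered arrays of the groups share only a number (correlation of their deviations 0.05), and with the replicate block 92 probe sets met the criterion and 0 the adjusted threshold. Signal over background limits the 14 genes under the negative control median.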

Other observations

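The 20 probe sets in which TCQA replicate 1 stood farthest above the other arrays, listed after seeing the data, held 3 of the 31 genes: Eomes at rank 1, Cdhr1 at rank 15 and Scgn at rank 16. Th, from the list of other bulb genes, was at rank 12. Lgr5, a receptor for R-spondins, was at rank 8 with 9.69 and 7.15 with TCQA and 7.85 and 7.38 in control. Frmd7, a FERM domain protein, was at rank 3 with 8.20 and 4.21 with TCQA and 6.01 and 5.00 in control, and Cpa6, a carboxypeptidase, at rank 9 with 7.52 and 5.10 with TCQA and 5.61 and 5.69 in control. TCQA replicate 2 was the lowest array for Frmd7, Lgr5 and Cpa6, as for Eomes and Cdhr1.

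Ifit3, Ifitm3, Oasl2, Cxcl10, Ifit3b, Trim30a and Ifit1, known as genes induced by interferon, were at ranks 5, 6, 7, 10, 11, 14 and 20, so they were more of the list than the bulb genes. Ifit3 had 10.85 and 8.82 with TCQA and 7.90 and 8.69 in control, so that control replicate 1 was its lowest array. Oasl2 had 8.44 and 6.18 with TCQA and 6.54 and 6.53 in control, with TCQA replicate 2 lowest.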
